A study of Mus musculus with 57 samples.

Results

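The 100 Illumina probes described here are those with the largest excess after proton irradiation over sham-irradiated tumours in mice of both ages. They were picked from 20591 detected probes of 45281 on the array. For each probe the median of the irradiated arrays minus the median of the sham x3 arrays was taken at each age, on quantile-normalized log2 intensities, and the 100 probes with the largest smaller difference were kept. A table of the array platform pairs 71 of them with 1 gene each, 67 genes in all, and 29 probes are unnamed and are given by their number.

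The tumours were Lewis lung carcinoma (LLC), a transplantable lung cancer line of the mouse, grown in male hosts that were adolescent (labelled young) or old. Irradiated tumours had received protons at 0.5 Gy in each of 3 fractions, with 10 tumours of adolescent and 10 of old mice. Sham acute tumours numbered 9 and 10 and sham x3 tumours 9 and 9, all at 0 Gy. How sham acute and sham x3 tumours differed in timing is not labelled. Each array held RNA of 1 tumour, so p-values measure the spread between tumours, and neither shared cages nor shared processing is labelled. Since no processing batch is labelled, its part in any difference was not tested.

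Among the sham x3 arrays 3 stood apart. The genes named for this check were chosen after the data were seen. Sftpc, which encodes a surfactant protein of the lung, had log2 levels of 14.02 and 14.35 on the arrays labelled old sham x3 replicates 6 and 7, against 4.28 to 4.79 on the 54 arrays outside those that stood apart. Scgb1a1, a secretoglobin of airway club cells, had 14.49 and 14.54 on the same arrays, against 4.35 to 5.47. Their summed endothelial marker level (24 probes) was 67883 and 90663, against a median of 6866 over the 9 old sham x3 arrays. The array labelled adolescent sham x3 replicate 5 had 14.37 for Ckm, the muscle creatine kinase, and the 54 arrays had a median of 4.48 and a highest value of 10.93. All 3 arrays entered the choice of the probes. Counts of probes past the threshold and some single results are also given without them. The ranges of sham x3 tumours for single genes and the shares of variance between sets include them.

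Several of the genes behind the probes belong to processes that tumours and their host cells share. Matrix metalloproteinases and chemokines are secreted by stromal and inflammatory cells; they cut the matrix and draw leukocytes into the tissue. Myc and Atf4 are transcription factors of growth and of the integrated stress response. Proteins that bind, splice and translate messenger RNA and core histones are made in most dividing cells, and p53 is the main transcription factor of the response to DNA damage.

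By construction every one of the 100 probes was higher after protons than in sham x3 tumours. On the log2 scale used for the choice, the median difference over the probes was 0.402 in adolescent mice (0.339 to 0.848) and 0.559 in old mice (0.339 to 2.01), and over all probes kept it was 0.00761 and -0.00289. The adolescent difference was the smaller one for 73 probes and the old difference for 27. Just inside the limit lay the third Mmp3 probe at 0.3395, the small nucleolar RNA gene Snora65 at 0.3393 and the dehydrogenase gene Dhrs7 at 0.3389, and just outside it a second probe of Naca, a chaperone of nascent proteins, at 0.3387, ILMN_2527129 at 0.3367 and the splicing factor gene Srsf4 at 0.3363. The values show no step at the limit. With the 3 arrays that stood apart left out, 72 of the 100 probes were picked again.

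The level of the 100 probes on an array was summarised as the median over the probes of the log2 level minus its mean over the 57 arrays. From here on, log2 levels are background-corrected and quantile-normalized, and 3 values in a row are the lowest, the median and the highest array of a set. The summary was 0.257, 0.545 and 0.728 in irradiated adolescent tumours, against -0.021, 0.06 and 0.255 in adolescent sham acute and -0.16, 0.038 and 0.337 in adolescent sham x3 tumours. In irradiated old tumours it was -0.307, -0.009 and 0.476, against -0.013, 0.162 and 0.298 in old sham acute and -1.98, -0.706 and -0.111 in old sham x3 tumours. Every irradiated adolescent array was thus above every adolescent sham acute array, the old irradiated and old sham acute arrays overlapped, and old sham x3 arrays were the lowest set. The 2 lowest values were those of old sham x3 replicates 6 and 7; without them the set still ran from -0.854 to -0.111.

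**Figure D1:**
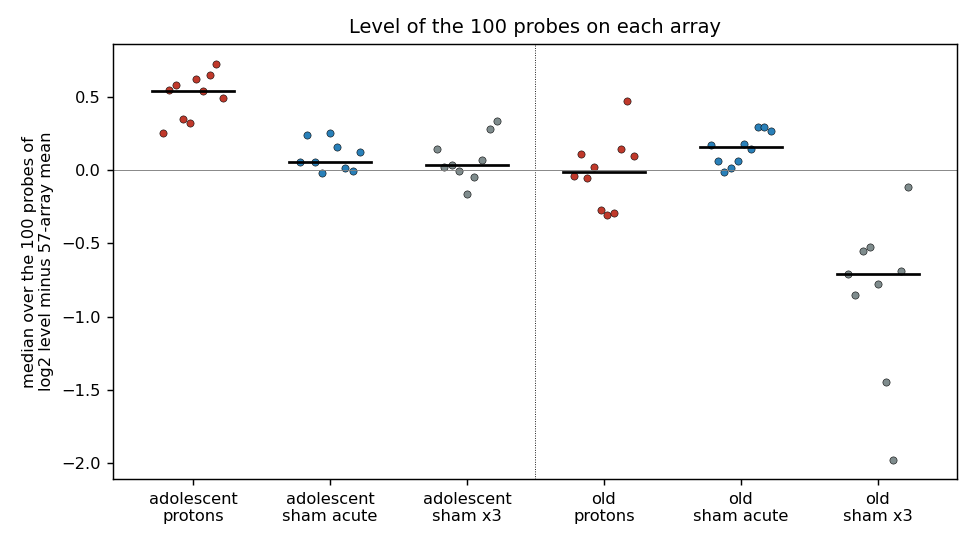
Median over the 100 probes of the log2 level minus the mean of the 57 arrays (vertical axis) for each array in the 6 sets, with a line at each set's median. The 10 irradiated adolescent arrays lie between 0.257 and 0.728, and the 9 old sham x3 arrays lie between -1.98 and -0.111.

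For 94 of the 100 probes the lowest set mean was that of old sham x3 tumours (85 without the 3 arrays), and for 71 the highest was that of irradiated adolescent tumours. Irradiated old tumours had the highest mean for 8 probes only. Old sham acute minus old sham x3 was positive for all 100 probes, with a median of 0.897 log2 units, beside 0.781 for irradiated minus sham x3 in the same fit. Without the 2 old arrays these medians were 0.666 and 0.568, positive for 97 and 98 probes. In adolescent mice sham acute minus sham x3 had a median of 0.00698, with 52 probes positive. Each of these values rests on arrays that chose the probes and is a description. The share of all probes detected was 35.6 ± 1.96% on old irradiated, 39.1 ± 1.45% on old sham acute and 35.9 ± 3.02% on old sham x3 arrays (SD, n = 10, 10 and 9); its part in the differences was not tested beyond its use as a covariate below.

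**Figure D2:**
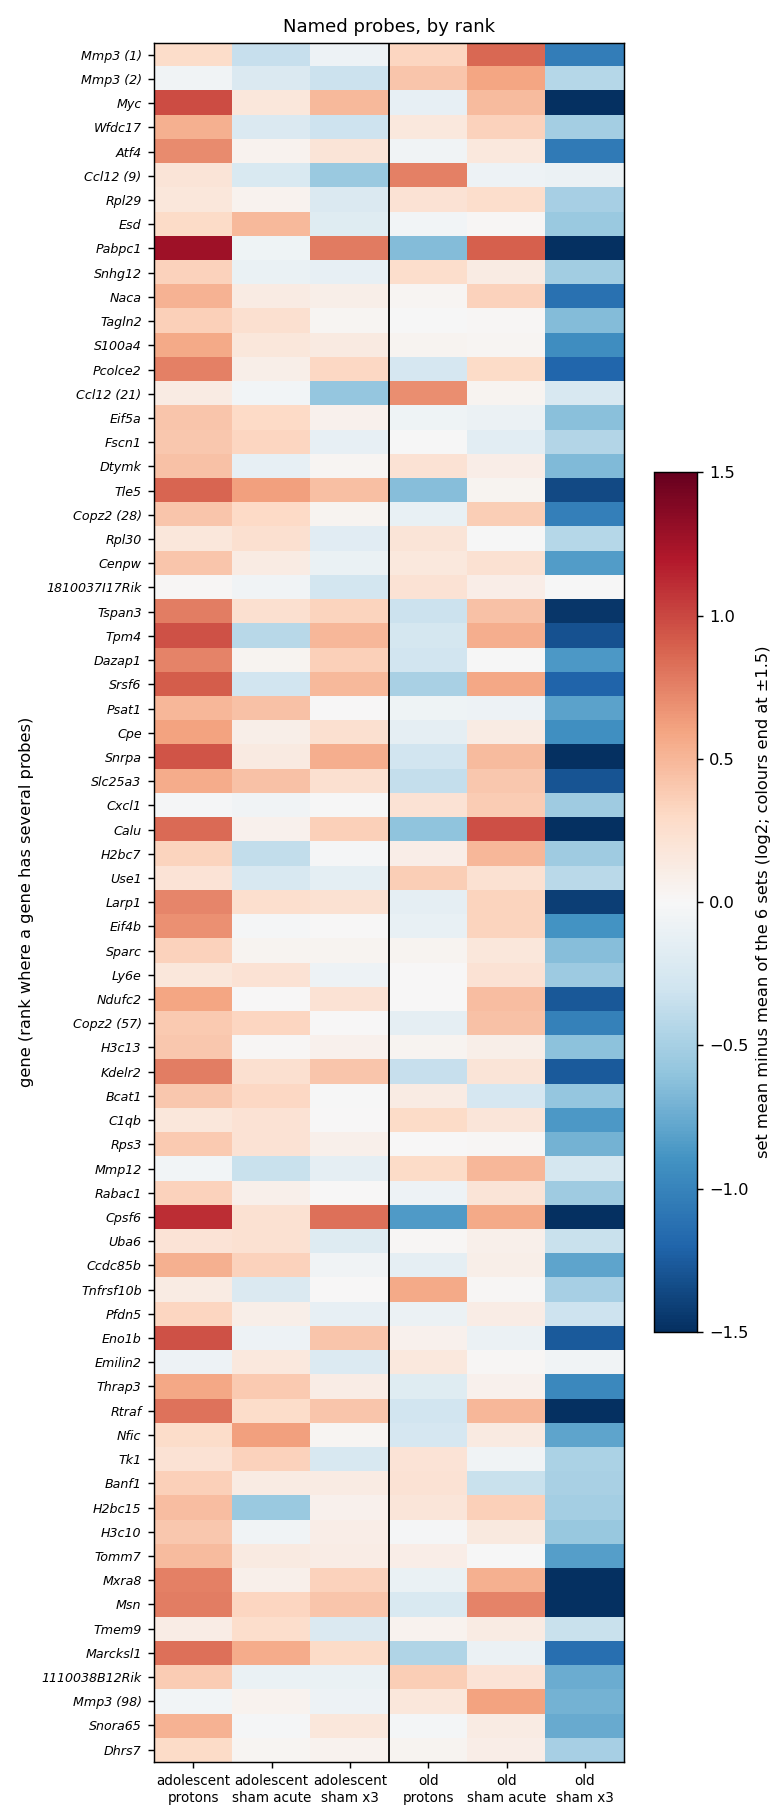
Mean log2 level of each named probe in the 6 sets minus the mean of the 6 sets (colour), with probes ordered by the smaller of the 2 differences that chose them. The column of old sham x3 tumours is the lowest for most probes, and the column of old sham acute tumours is mostly above that of old irradiated tumours.

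Sham acute arrays did not enter the choice of the probes and give a second set of controls, although the irradiated arrays are the same ones. The fitted background intensity averaged 174 on old sham acute and 123 on old irradiated arrays. In adolescent mice it averaged 140 and 105. On sham x3 arrays it averaged 130 in old and 99.8 in adolescent mice. The part of the background in the differences was not tested. Against adolescent sham acute tumours, 33 of the 100 probes were higher in irradiated adolescent tumours in limma's test (adjusted p under 0.05, over all 20591 probes), where 8.29% of all probes were higher. None was lower (0 of 100, with 1 at an unadjusted p under 0.05, against 7.14% of all probes), and no other test was run beside limma. The difference was positive for 87 probes, with a median of 0.387 against 0.0165 over all probes. In old mice 2 probes were higher than in sham acute tumours (8.21% of all probes) and 21 were lower (11.4%), with a median of -0.159 against -0.0183 over all probes. In these bulk tumours a fall in the number of cells of a type and less RNA per cell cannot be told apart.

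None of the 100 probes was higher than in sham acute tumours at both ages in limma's test, where 101 of all probes (0.491%) were. At an unadjusted p under 0.05 the count was also 0, against 310 of all probes (1.51%). Instead 14 probes were higher in irradiated adolescent and lower in irradiated old tumours, against 2.28% of all probes. By sign alone 61 probes were positive in adolescent and negative in old mice (31.6% of all probes) and 26 were positive at both ages (20.8%). The old irradiation difference was below the adolescent one for 40 probes in a test of that difference (limma, 13.5% of all probes) and above it for none (9.97%). Its median over the 100 probes was -0.459, and without the 3 arrays that stood apart the counts were 44 higher in adolescent mice, 2 higher and 27 lower in old mice, and 46 for the difference between the ages. With the share of detected probes as a covariate, added after the data were seen, 38 probes were higher in adolescent mice and in old mice none was higher and 13 were lower (limma). The shares over all probes are those of the main fit and were not taken for these refits.

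**Figure D3:**
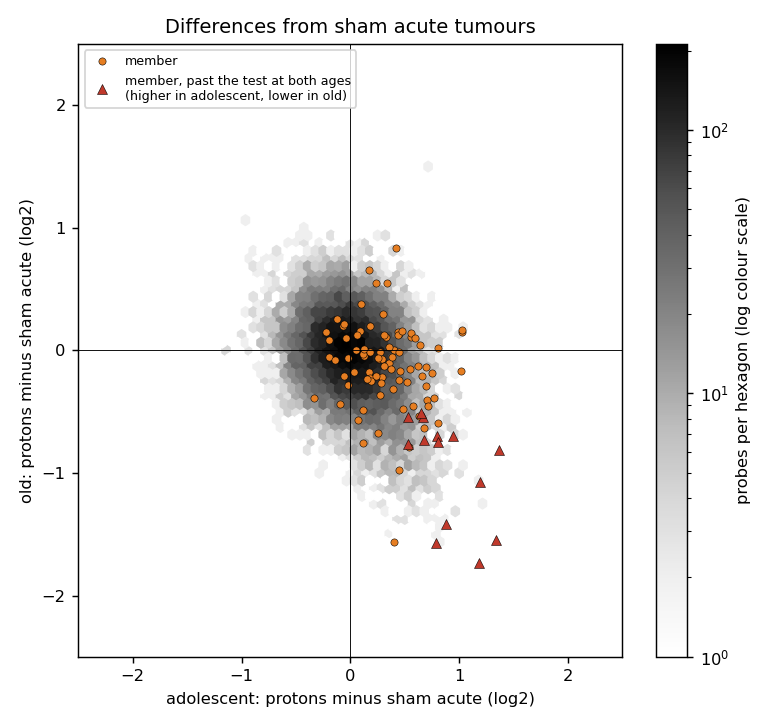
Irradiated minus sham acute difference in adolescent mice (horizontal axis, log2) against that in old mice (vertical axis, log2) for all probes kept (grey hexagons, log colour scale) and the 100 probes (points). Triangles mark the 14 probes past limma's threshold at both ages, all to the right of 0 and below it.

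Secreted and matrix proteins gave 12 of the 100 probes. Mmp3 encodes stromelysin, a protease that cuts collagens and proteoglycans, and gave 3 of the 100 probes, 2 of them at the top. On ILMN_2704576 Mmp3 had log2 levels of 9.97, 11.68 and 12.66 in irradiated adolescent tumours, against 8.47, 11.25 and 11.58 in adolescent sham acute and 9.32, 10.92 and 12.60 in adolescent sham x3 tumours. In irradiated old tumours it had 9.78, 11.56 and 13.06, against 10.96, 12.26 and 12.65 in old sham acute and 6.38, 10.68 and 12.38 in old sham x3 tumours. The sets overlapped throughout, and single tumours differed by far more than the sets did. Against sham acute tumours the difference was 0.63 ± 0.53 in adolescent and -0.54 ± 0.52 in old mice (SE, limma, adjusted p = 0.467 and 0.521). The other Mmp3 probes, ILMN_2753809 and ILMN_2899041, had differences of 0.17 and -0.10 in adolescent and -0.17 and -0.44 in old mice, with adjusted p of 0.513 or more (limma). Mmp12, the macrophage elastase gene near Mmp3 on chromosome 9, had 0.29 ± 0.40 and -0.21 ± 0.39 (SE, limma, adjusted p = 0.689 and 0.759).

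Ccl12, a chemokine that attracts monocytes, had its highest set mean in irradiated old tumours on both of its probes. On ILMN_3161805 Ccl12 had log2 levels of 8.45, 8.91 and 9.37 in irradiated old tumours, against 7.01, 7.88 and 10.07 in old sham acute and 5.90, 8.27 and 9.28 in old sham x3 tumours. Most old sham acute arrays lay below every irradiated old array, and 1 sham acute array was the highest of all. The difference from old sham acute tumours was 0.84 ± 0.36 (SE, limma, adjusted p = 0.0911); without old sham acute replicate 18, the highest array, it was 1.07 (adjusted p = 0.0234). In adolescent mice Ccl12 had 6.58, 8.66 and 9.93 in irradiated tumours, against 6.55, 7.74 and 9.04 in sham acute tumours, a difference of 0.42 ± 0.37 (SE, limma, adjusted p = 0.485). The second Ccl12 probe, ILMN_2771766, gave 0.17 in adolescent and 0.65 in old mice (limma, adjusted p = 0.822 and 0.249).

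Cxcl1, a chemokine that attracts neutrophils, had the widest values among the members after Mmp3. Cxcl1 had log2 levels of 8.18, 12.18 and 13.32 in irradiated adolescent tumours, against 9.48, 11.54 and 13.15 in adolescent sham acute and 9.62, 11.37 and 13.11 in adolescent sham x3 tumours. Cxcl1 levels in irradiated old tumours were 9.28, 11.87 and 13.69, against 9.41, 12.08 and 12.80 in old sham acute and 7.17, 11.46 and 12.95 in old sham x3 tumours. The sets overlapped widely on this probe, and 3.7% of its variance over the 57 arrays lay between the 6 sets, against a median of 55.2% over the 100 probes. Means and medians parted as well, since the irradiated minus sham x3 difference of medians was 0.775 in adolescent mice and the fitted difference of means was -0.01 ± 0.67 (SE). Mmp12, Emilin2, the 3 Mmp3 and the 2 Ccl12 probes were next lowest in this share, at 10.8% to 21.4%.

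Promoters of the proteases and chemokines are shown because the tumours of a set differed widely in these genes. The sequences are RefSeq's, build GRCm38.p6, plus strand, 250 bases before to 50 after a start site; capitals mark a match to 1 of 5 motifs, searched on both strands. These were TGANTCA, the AP-1 site, and the NF-kB site, a motif of 10 letters. The ATF4 element was TGATGNAA, a motif of the stress response. The E-box was CACGTG, which Myc can bind, and the TATA box was TATAAA. Mmp3 lies at chr9:7445572-7445871, the second listed start of Mmp12 at chr9:7347124-7347423, Cxcl1 at chr5:90890995-90891294 and Ccl12 at chr11:82101595-82101894.
Mmp3: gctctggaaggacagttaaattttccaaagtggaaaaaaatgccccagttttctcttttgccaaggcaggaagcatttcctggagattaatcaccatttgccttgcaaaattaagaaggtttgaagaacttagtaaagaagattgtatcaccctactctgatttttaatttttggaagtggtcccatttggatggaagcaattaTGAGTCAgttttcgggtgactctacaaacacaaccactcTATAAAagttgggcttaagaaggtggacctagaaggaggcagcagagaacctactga
Mmp12: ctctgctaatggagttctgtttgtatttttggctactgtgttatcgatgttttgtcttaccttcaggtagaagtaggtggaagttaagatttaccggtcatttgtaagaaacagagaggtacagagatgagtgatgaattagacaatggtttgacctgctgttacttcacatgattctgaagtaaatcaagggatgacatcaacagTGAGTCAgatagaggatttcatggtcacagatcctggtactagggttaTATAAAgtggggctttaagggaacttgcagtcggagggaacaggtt
Cxcl1: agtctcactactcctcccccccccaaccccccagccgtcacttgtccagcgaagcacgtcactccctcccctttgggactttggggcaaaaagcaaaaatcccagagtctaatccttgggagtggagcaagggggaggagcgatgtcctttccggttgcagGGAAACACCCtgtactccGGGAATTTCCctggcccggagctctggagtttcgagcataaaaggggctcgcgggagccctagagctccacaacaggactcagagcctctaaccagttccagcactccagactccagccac
Ccl12: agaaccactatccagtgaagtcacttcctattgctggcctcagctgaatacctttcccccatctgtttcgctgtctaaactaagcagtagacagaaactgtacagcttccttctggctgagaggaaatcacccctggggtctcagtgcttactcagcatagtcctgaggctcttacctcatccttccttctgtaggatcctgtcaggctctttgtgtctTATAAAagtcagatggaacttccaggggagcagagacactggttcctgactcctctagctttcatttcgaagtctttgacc

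Mmp3 and Mmp12 each held the letters TGAGTCA, starting at -46 and -44 from the start site. Because the motif TGANTCA reads the same on both strands here, each counts once. The first listed start of Mmp12, at chr9:7344147-7344446, held none of the motifs. Cxcl1 held 2 matches to the NF-kB site, at -89 on the minus strand and at -71 on the plus strand, and none of these matches overlapped another motif. Ccl12 held TATAAA at -31. Over the 69 promoters listed for 54 of the 67 genes, TGANTCA was found in 7.25% and the NF-kB site in 4.35%, against 7.81% and 1.63% of all 32851 promoters of the table. The share with TGATGNAA was 2.9% against 3.97%, that with CACGTG 13% against 7.15% and that with TATAAA 20.3% against 13.6%. A match describes letters in these windows only.

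The remaining 5 secreted products were Wfdc17, C1qb, Sparc, Pcolce2 and Emilin2. Wfdc17, a small antiprotease-like protein of activated macrophages, was 0.75 ± 0.28 log2 units above adolescent sham acute tumours (SE, limma, adjusted p = 0.0572, and 0.0367 without the 3 arrays that stood apart) and -0.18 ± 0.27 in old mice (adjusted p = 0.699). C1qb, a chain of complement C1q made by macrophages, had 9.86, 11.48 and 12.19 in irradiated old tumours, against 10.18, 11.39 and 11.84 in old sham acute and 8.55, 10.15 and 11.77 in old sham x3 tumours. The C1qb values of irradiated and sham acute tumours overlapped almost entirely, with a difference of 0.10 ± 0.29 (SE, limma, adjusted p = 0.852). Sparc, a matricellular protein that binds collagen, differed by 0.31 ± 0.19 in adolescent and -0.13 ± 0.18 in old mice (SE, limma, adjusted p = 0.282 and 0.678). Pcolce2, which enhances procollagen processing, was the only one of the 12 probes of secreted products past the threshold: 0.67 ± 0.21 higher in adolescent mice and lower at -0.54 ± 0.20 in old mice (SE, limma, adjusted p = 0.021 and 0.0499). The old call was lost in 14 of 20 fits that left out 1 array of the comparison and with the share of detected probes as a covariate (adjusted p = 0.172). Another Pcolce2 probe, ILMN_1238603, differed by 0.07 in adolescent and 0.05 in old mice (limma, adjusted p = 0.876 and 0.918).

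**Figure D4:**
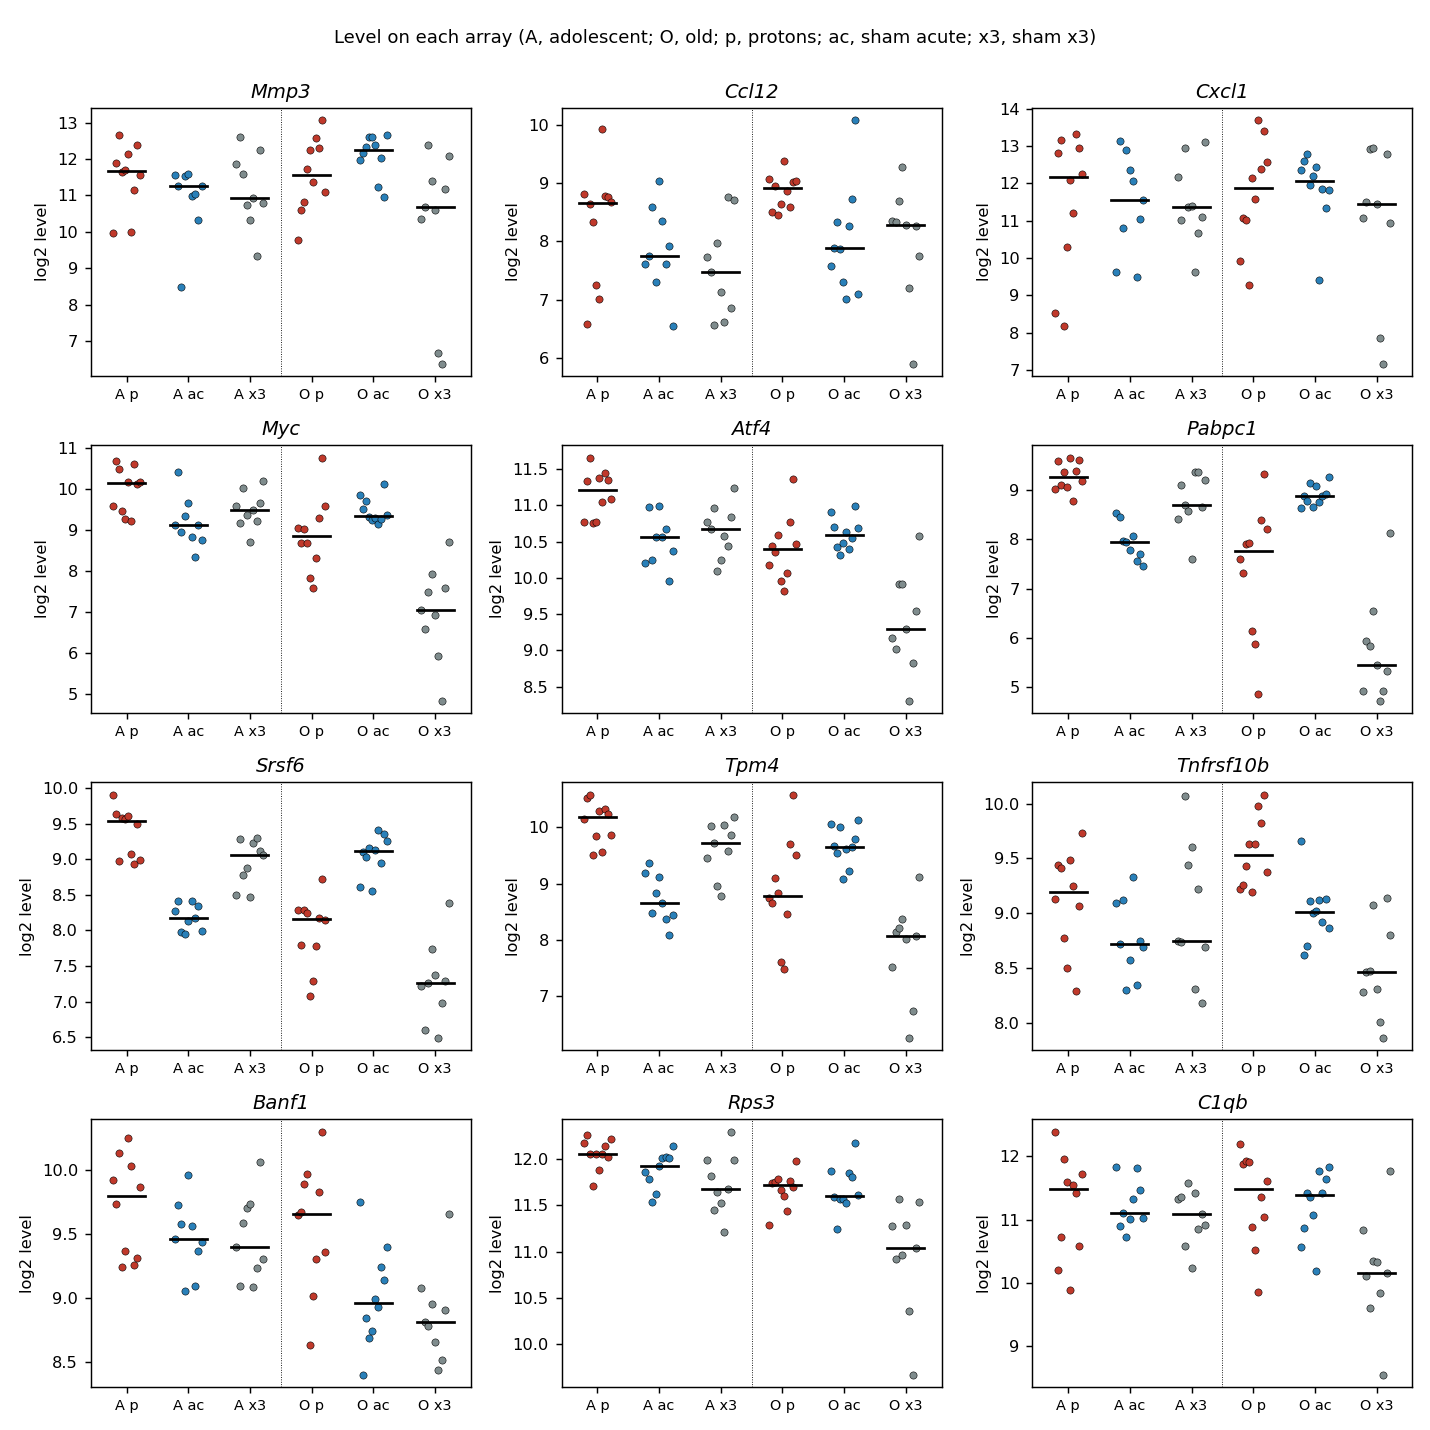
Log2 level (vertical axes, scaled to each probe) of 12 member probes on each of the 57 arrays, by age and set, with a line at the set median; Mmp3 is ILMN_2704576 and Ccl12 is ILMN_3161805. Pabpc1, Srsf6 and Tpm4 are higher in irradiated than in sham acute adolescent tumours on every array, and their old irradiated medians lie below those of old sham acute tumours.

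Among transcription factors, Myc drives growth and ribosome production. Myc had log2 levels of 9.24, 10.15 and 10.68 in irradiated adolescent tumours, against 8.35, 9.13 and 10.43 in adolescent sham acute and 8.73, 9.49 and 10.20 in adolescent sham x3 tumours. Myc levels in irradiated old tumours were 7.59, 8.86 and 10.78, against 9.15, 9.34 and 10.13 in old sham acute and 4.84, 7.06 and 8.71 in old sham x3 tumours. Irradiated tumours were mostly above sham acute ones in adolescents and mostly below them in old mice, with overlap at both ages. The differences were 0.80 ± 0.32 and -0.60 ± 0.31 (SE, limma, adjusted p = 0.0742 and 0.174; 0.0263 in adolescent mice without the 3 arrays that stood apart), and the old minus adolescent value of -1.40 ± 0.44 passed the threshold (adjusted p = 0.0154). Leaving out 1 array also moved Myc across the threshold: the adolescent difference was 0.96 without sham acute replicate 11 (adjusted p = 0.0322), and the old one -0.81 without irradiated replicate 9 (adjusted p = 0.0413).

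Atf4, the effector of the integrated stress response, rose in irradiated adolescent tumours. Atf4 had log2 levels of 10.76, 11.21 and 11.66 there, against 9.96, 10.56 and 10.99 in adolescent sham acute tumours, and the ranges overlapped only at their ends. The difference was 0.66 ± 0.19 (SE, limma, adjusted p = 0.0116), and 0.47 (adjusted p = 0.0894) when arrays were scaled to their 75th percentile. A second Atf4 probe, ILMN_2642681, differed by 0.33 (adjusted p = 0.0762). In irradiated old tumours Atf4 had 9.82, 10.40 and 11.37, against 10.31, 10.59 and 10.99 in old sham acute tumours, a difference of -0.21 ± 0.18 (SE, limma, adjusted p = 0.474). Tle5, a corepressor of the Groucho family, was lower in irradiated old tumours at -0.68 ± 0.18, and Nfic, a CCAAT-binding factor, at -0.39 ± 0.12 (SE, limma, adjusted p = 0.0058 and 0.0153). Another Nfic probe, ILMN_2710678, was higher in irradiated old tumours at 0.68 (adjusted p = 0.0146), and ILMN_1216381 was lower at -0.35 (adjusted p = 0.0131), so probes of Nfic disagree. With the share of detected probes as a covariate Tle5 had an adjusted p of 0.0809. The grouping of the genes by role was made with their values known.

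A group of 8 probes belongs to proteins that bind and splice RNA. All 8 were positive against sham acute tumours in adolescent mice and negative in old mice, as were 31.6% of all probes. Against sham acute tumours 5 of them were higher in adolescent mice (8.29% of all probes) and 4 lower in old mice (11.4%). The medians were 0.749 and -0.770, and the group was made with the values known. Against sham x3 tumours these probes were higher at both ages by construction. Pabpc1 encodes the poly(A)-binding protein that coats the tails of messenger RNA. Pabpc1 had log2 levels of 8.78, 9.27 and 9.66 in irradiated adolescent tumours, against 7.46, 7.95 and 8.54 in adolescent sham acute and 7.60, 8.69 and 9.38 in adolescent sham x3 tumours. Pabpc1 levels in irradiated old tumours were 4.85, 7.76 and 9.32, against 8.63, 8.88 and 9.27 in old sham acute and 4.73, 5.45 and 8.12 in old sham x3 tumours. Irradiated and sham acute arrays of adolescent mice did not overlap, whereas 1 old irradiated array lay above all old sham acute arrays and the others lay below them. The differences were 1.34 ± 0.34 and -1.55 ± 0.33 (SE, limma, adjusted p = 0.00456 and 0.000527).

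Srsf6, a serine- and arginine-rich splicing factor, showed the same order with less spread. Srsf6 had log2 levels of 8.94, 9.53 and 9.91 in irradiated adolescent tumours, against 7.95, 8.17 and 8.41 in adolescent sham acute and 8.46, 9.05 and 9.30 in adolescent sham x3 tumours. Srsf6 levels in irradiated old tumours were 7.08, 8.16 and 8.73, against 8.55, 9.11 and 9.41 in old sham acute and 6.50, 7.26 and 8.38 in old sham x3 tumours. Adolescent irradiated and sham acute arrays did not overlap, and in old mice 1 irradiated array reached the sham acute range. The differences were 1.19 ± 0.18 and -1.07 ± 0.17 (SE, limma, adjusted p = 3.77e-06 and 1e-05). Snrpa, a protein of the U1 spliceosomal particle, differed by 0.80 ± 0.26 and -0.75 ± 0.25, and Cpsf6, a cleavage factor of 3' end processing, by 0.88 ± 0.26 and -1.41 ± 0.25 (SE, limma, adjusted p = 0.0255, 0.0263, 0.0159 and 5.39e-05 in that order).

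Other probes of the same genes did not always move with the member probe. A second Srsf6 probe, ILMN_2611728, differed by -0.16 in adolescent and 0.06 in old mice (limma, adjusted p = 0.386 and 0.78). One further Pabpc1 probe, ILMN_2705407, moved as the member did, by 0.97 and -1.33 (limma, adjusted p = 0.0455 and 0.00303), and another, ILMN_1259482, by 0.31 and -0.29 (adjusted p = 0.119 and 0.121). None of the 4 other Cpsf6 probes passed the threshold at either age. Another Snrpa probe, ILMN_2667509, differed by 0.23 in adolescent and 0.17 in old mice (limma, adjusted p = 0.0738 and 0.176). Of the 3 members of the group that passed at neither age, Thrap3, Larp1 and Rtraf, other probes of Thrap3 (ILMN_2882164 and ILMN_2566477) were higher in adolescent mice, by 0.76 and 0.46 (limma, adjusted p = 0.00191 and 0.000689). One of Larp1, ILMN_2758550, was higher by 0.44 (adjusted p = 0.0485), whereas one of Rtraf, ILMN_1225213, was lower at -0.28 (adjusted p = 0.0119). Dazap1, which passed in adolescent mice, had another probe higher there (ILMN_1227087, 0.30, adjusted p = 0.00853) and one lower in old mice (ILMN_1248302, -0.86, adjusted p = 5.5e-05).

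Of 6 member probes of translation genes, only Eif4b, an initiation factor that helps unwind messenger RNA, rose in irradiated adolescent tumours, by 0.71 ± 0.20 (SE, limma, adjusted p = 0.0115). None of the 6 passed in old mice. Another Eif4b probe, ILMN_2753323, was lower in old mice at -0.865 and had 0.66 in adolescent mice (limma, adjusted p = 0.0322 and 0.136). Rps3, a protein of the small ribosomal subunit, had 11.71, 12.06 and 12.26 in irradiated adolescent tumours, against 11.54, 11.93 and 12.14 in adolescent sham acute tumours. Its old levels were 11.28, 11.72 and 11.98 in irradiated tumours, against 11.25, 11.60 and 12.17 in sham acute tumours, and the sets overlapped at both ages. Rps3 differed by 0.18 ± 0.15 and -0.01 ± 0.14 (SE, limma, adjusted p = 0.46 and 0.974). The ribosomal protein probes Rpl29 and Rpl30, whose genes have many near-identical processed copies in the genome, differed by 0.12 and -0.07 in adolescent and -0.05 and 0.20 in old mice (adjusted p of 0.187 or more).

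Among 6 member probes of actin cytoskeleton genes, only that of Tpm4, a tropomyosin of non-muscle filaments, rose in adolescents. Marcksl1, another gene of this group, had other probes that rose there. ILMN_2617162 and ILMN_2701891 were higher by 0.80 and 0.73 (limma, adjusted p = 0.000863 and 0.000997), and ILMN_1215632 had 0.40 (adjusted p = 0.141). Tpm4 had log2 levels of 9.51, 10.19 and 10.58 in irradiated adolescent tumours, against 8.08, 8.65 and 9.36 in adolescent sham acute tumours, with no overlap. Tpm4 levels in irradiated old tumours were 7.48, 8.79 and 10.59, against 9.09, 9.66 and 10.13 in old sham acute tumours, and these ranges overlapped. The differences were 1.37 ± 0.28 and -0.81 ± 0.27 (SE, limma, adjusted p = 0.000375 and 0.0247). The old call was lost without old irradiated replicate 5 or 6 (adjusted p up to 0.0745), and of the other Tpm4 probes ILMN_2515363 was -0.33 in adolescent mice (adjusted p = 0.0318) while ILMN_2571616 was 0.54 (adjusted p = 0.0133).

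Msn, moesin, links actin to the plasma membrane and had the largest old difference used in the choice, 2.01. Msn had log2 levels of 7.75, 10.21 and 11.34 in irradiated old tumours, against 10.10, 10.81 and 11.31 in old sham acute and 7.04, 7.70 and 10.85 in old sham x3 tumours. The irradiated old arrays spread across both sham sets. Msn was lower than in old sham acute tumours at -0.97 ± 0.30 (SE, limma, adjusted p = 0.0164; up to 0.059 without old irradiated replicate 6 or 7, and 0.466 with the share of detected probes as a covariate). Its other probes, ILMN_2583410 and ILMN_1229193, were -0.0688 and -0.168 on the old difference used in the choice, against 2.01 for the member, so 1 of 3 probes was higher than in old sham x3 tumours on this scale. Msn was described after its values were seen.

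Of 6 probes of the secretory pathway, 2 were higher in adolescent mice (Calu and Kdelr2) and 4 lower in old mice (these and both Copz2 probes). Over all probes these shares were 8.29% and 11.4%. Calu, calumenin, binds calcium in the endoplasmic reticulum. Calu had log2 levels of 6.05, 7.31 and 7.61 in irradiated adolescent tumours, against 5.92, 6.37 and 7.20 in adolescent sham acute tumours, and overlapped. Calu levels in irradiated old tumours were 4.68, 5.80 and 6.87, against 6.35, 7.46 and 7.78 in old sham acute and 4.40, 4.53 and 6.40 in old sham x3 tumours, where it was near the lower end of the scale; it was detected on 45 of 57 arrays, the fewest among the 100 probes. The differences were 0.79 ± 0.28 and -1.57 ± 0.27 (SE, limma, adjusted p = 0.0452 and 3.47e-05), and the adolescent call was lost in 14 of 19 fits that left out 1 array and with the share of detected probes as a covariate (adjusted p = 0.0787). The other 3 Calu probes passed the threshold at neither age. Kdelr2, a receptor that returns proteins to the endoplasmic reticulum, differed by 0.53 ± 0.18 and -0.55 ± 0.18 (SE, limma, adjusted p = 0.0408 and 0.023). Both probes of Copz2, a subunit of the coat of retrograde vesicles, fell in old mice, by 0.49 and 0.57 (limma, adjusted p = 0.0385 and 0.02), and were lost in 7 and 3 of 20 fits that left out 1 array and with the share of detected probes as a covariate (adjusted p = 0.297 and 0.184).

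Of 8 probes of chromatin and DNA synthesis genes 4 rose in irradiated adolescent tumours: the histone genes H2bc15, H2bc7 and H3c13, and Dtymk, which encodes thymidylate kinase. Over all probes the share was 8.29%. H2bc15, a histone H2B gene, had 9.41, 9.80 and 10.21 in irradiated adolescent tumours, against 8.23, 8.78 and 9.34 in adolescent sham acute tumours, without overlap. In old mice it had 9.08, 9.42 and 10.20 in irradiated tumours, against 9.18, 9.63 and 10.12 in sham acute tumours, with full overlap. H2bc15 differed by 1.02 ± 0.17 and -0.17 ± 0.16 (SE, limma, adjusted p = 2.44e-05 and 0.534), and the old minus adolescent value was -1.19 ± 0.24 (adjusted p = 0.00015). Histone genes of 1 family are near-identical, so a probe may read several of them. Eno1b, a near-identical copy of the enolase gene Eno1, differed by 1.03 ± 0.23 in adolescent and 0.15 ± 0.22 in old mice (SE, limma, adjusted p = 0.00122 and 0.699).

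The 2 probes higher in irradiated than in sham acute old tumours were Tnfrsf10b and Banf1, the second chosen for description after its values were seen. Tnfrsf10b encodes the TRAIL death receptor of the mouse and is a known p53 target. Tnfrsf10b had log2 levels of 9.19, 9.53 and 10.08 in irradiated old tumours, against 8.61, 9.01 and 9.66 in old sham acute and 7.86, 8.47 and 9.14 in old sham x3 tumours. Every irradiated array lay above every sham array but 1, the highest sham acute array, which stood apart from its set. The difference was 0.55 ± 0.19 in old and 0.34 ± 0.19 in adolescent mice (SE, limma, adjusted p = 0.0295 and 0.24), and the old call was lost in 4 of 20 fits that left out 1 array and with the share of detected probes as a covariate (0.14, adjusted p = 0.668). With that covariate the adolescent difference was 0.46 (adjusted p = 0.0495), and with arrays scaled to their 75th percentile the old one was 0.35 (adjusted p = 0.0879). Of 3 other Tnfrsf10b probes, ILMN_2460875 was lower in old mice, at -0.53 (adjusted p = 0.0112).

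Banf1 encodes a protein that ties DNA to the nuclear envelope. Banf1 had log2 levels of 8.64, 9.66 and 10.30 in irradiated old tumours, against 8.40, 8.97 and 9.75 in old sham acute and 8.44, 8.82 and 9.66 in old sham x3 tumours, and the sets overlapped. The differences were 0.55 ± 0.17 in old and 0.24 ± 0.17 in adolescent mice (SE, limma, adjusted p = 0.0148 and 0.376). With the share of detected probes as a covariate the old difference was 0.46 (adjusted p = 0.105), with 75th percentile scaling it was 0.35 (adjusted p = 0.0784), and 3 other Banf1 probes were positive in old mice at 0.24 to 0.30, none past the threshold.

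Old and adolescent sham acute tumours entered no step of the choice, and 17 of the 100 probes differed between them: 7 were higher in old mice (10.5% of all probes) and 10 lower (10.7%), shares that are near those of all probes. The median difference was 0.112, against 0.00968 over all probes. On the authors' normalized values the split was 9 higher and 6 lower, and without the 3 arrays that stood apart 11 higher and 15 lower. The 5 with the largest rise were Pabpc1, Tpm4, Calu, H2bc15 and Srsf6, at 0.96 ± 0.34, 0.95 ± 0.28, 0.91 ± 0.28, 0.90 ± 0.17 and 0.87 ± 0.18 (SE, limma, adjusted p = 0.0362, 0.00957, 0.0151, 9.29e-05 and 0.00028 in that order). All 5 had been higher in irradiated than in sham acute adolescent tumours, against the same adolescent sham acute arrays. Other probes of these genes disagreed in part. Tpm4 ILMN_2515363 was lower in old mice at -0.39 and ILMN_2571616 higher at 0.43 (limma, adjusted p = 0.00858 and 0.0389). Other probes had 0.85 and -0.05 for Pabpc1, 0.08 for Srsf6 and 0.03, 0.07 and 0.36 for Calu, none past the threshold. Lower in old mice were Marcksl1, a protein kinase C substrate that binds actin, at -0.65 ± 0.16 and Bcat1, a transaminase of branched amino acids, at -0.56 ± 0.20 (SE, limma, adjusted p = 0.00218 and 0.0355). Other Marcksl1 probes had -0.51, -0.04 and -0.19, with only the first past the threshold (limma, adjusted p = 0.0462). Without the 3 arrays that stood apart, the Marcksl1 member also became lower in irradiated than in sham acute old tumours, at -0.365 (limma, adjusted p = 0.0248). With array weights it was lower there too, at -0.376 (adjusted p = 0.0177). The other Marcksl1 probes, ILMN_1215632, ILMN_2617162 and ILMN_2701891, were lower there in the main fit. They had -1.13, -1.12 and -0.60 (limma, adjusted p = 1.27e-05, 3.86e-06 and 0.00449). Between the sham acute sets Tle5 was lower in old mice at -0.57 ± 0.19 (SE, limma, adjusted p = 0.0224). The unnamed probes ILMN_1234143 and ILMN_2772691 were lower at -0.76 ± 0.22 and -0.64 ± 0.19 (adjusted p = 0.00909 and 0.0138). Leaving out 1 array ended the call of Pabpc1 in 7 and of Bcat1 in 8 of 19 fits, while the top Mmp3 probe, at 1.21 ± 0.53 (adjusted p = 0.0968), passed without the 3 arrays (adjusted p = 0.0174), with only the 2 sham acute sets in the fit (adjusted p = 0.00705) and with array weights (adjusted p = 0.00517).

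On 10 probes every irradiated adolescent array was higher than every adolescent sham acute array (1.10% of all probes), among them Pabpc1, Tpm4, Srsf6, Snrpa, H2bc15 and 5 unnamed probes, and on none was it lower (0.903%). Between the ages, old sham acute arrays were all above the adolescent ones on Pabpc1, Srsf6, H2bc7 and ILMN_2523903, 4 probes (1.59% of all probes), and all below on 1, ILMN_1234143 (1.65%). In old mice no probe had every irradiated array above every sham acute array (0.219%), and the unnamed ILMN_1223907 had every one below (0.350%). ILMN_1246590, the unnamed probe with the largest share of its variance between sets (86.4%), had 9.91, 10.37 and 10.74 in irradiated adolescent tumours, against 8.78, 9.02 and 9.88 in adolescent sham acute tumours. ILMN_1246590 in irradiated old tumours had 7.17, 7.80 and 9.03, against 8.75, 9.69 and 10.13 in old sham acute tumours, and most irradiated arrays lay below the sham acute range. The differences were 1.19 ± 0.24 and -1.73 ± 0.23 (SE, limma, adjusted p = 0.000419 and 7.51e-07). Of the 29 unnamed probes 15 were higher in adolescent mice and 6 lower in old mice, and of the 71 named ones 18 and 15. Over all probes 8.29% were higher in adolescent mice and 11.4% lower in old mice.

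The first 20 members, by the smaller difference, also held genes of other roles. Snhg12, a host gene of small nucleolar RNAs, had 10.61, 10.92 and 11.20 in irradiated adolescent tumours, against 10.29, 10.42 and 10.81 in adolescent sham acute tumours, and the ranges overlapped at their ends. The Snhg12 difference was 0.45 ± 0.17 (SE, limma, adjusted p = 0.0664, and 0.00207 without the 3 arrays that stood apart) in adolescent and 0.14 ± 0.17 in old mice (adjusted p = 0.627). Esd, esterase D, had 8.24, 8.47 and 8.86 in old sham acute tumours, against 8.63, 8.91 and 9.34 in adolescent sham acute tumours, a difference of -0.47 (limma, adjusted p = 0.0527, and 0.0321 without the 3 arrays). Against sham acute tumours Esd differed by -0.20 ± 0.18 in adolescent and -0.06 ± 0.18 in old mice (SE, limma, adjusted p = 0.507 and 0.868). Tagln2, an actin-binding protein, and S100a4, a calcium-binding protein linked to cell motility, differed from adolescent sham acute tumours by 0.11 ± 0.15 and 0.40 ± 0.21 (SE, limma, adjusted p = 0.665 and 0.194). They differed from old sham acute tumours by -0.03 ± 0.14 and 0.01 ± 0.20 (SE, adjusted p = 0.916 and 0.987). Naca had 0.39 ± 0.21 and -0.32 ± 0.21 (SE, limma, adjusted p = 0.222 and 0.307).

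Among the unnamed probes of the first 20, ILMN_2494421 was higher in adolescent mice by 0.80 and lower in old mice at -0.70 (limma, adjusted p = 0.00797 and 0.014, the old one 0.128 with the share of detected probes as a covariate). ILMN_1241536 and ILMN_2673936 were higher in adolescent mice by 0.69 and 0.62 (adjusted p = 0.00172 and 0.00257) and had -0.13 and -0.13 in old mice (adjusted p = 0.606 and 0.603). ILMN_1214137 had 0.36 and -0.11 (adjusted p = 0.409 and 0.831). Further down the order, ILMN_2705119 had 9.39, 10.78 and 12.18 in irradiated old tumours, against 11.67, 12.40 and 12.63 in old sham acute tumours, with overlap. It was lower in old mice at -1.56 ± 0.27 and had 0.40 ± 0.27 in adolescent mice (SE, limma, adjusted p = 2.47e-05 and 0.347).

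Further probes of the same genes were not chosen by the rule, although the arrays are the same. For 40 of the 67 genes 68 other probes were kept. Of these 39 were higher after protons than in sham x3 tumours at both ages (31.7% of all probes kept), 10 were lower at both, and the median of the smaller difference was 0.0235, against 0.386 for the 100 members. Ly6e and Pfdn5 had other probes close to their members. Msn, Slc25a3, Nfic, Use1 and Tpm4 were among the genes with another probe of opposite sign in old mice. So were Pcolce2, Sparc, Tnfrsf10b, Cpsf6, Atf4, Tle5, Rtraf, Thrap3 and Dazap1. Against sham acute tumours 9 of the 68 were higher and 3 lower in adolescent mice, and 1 was higher and 10 lower in old mice. Over all probes 8.29% were higher and 7.14% lower in adolescent mice, and 8.21% and 11.4% in old mice.

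**Figure D5:**
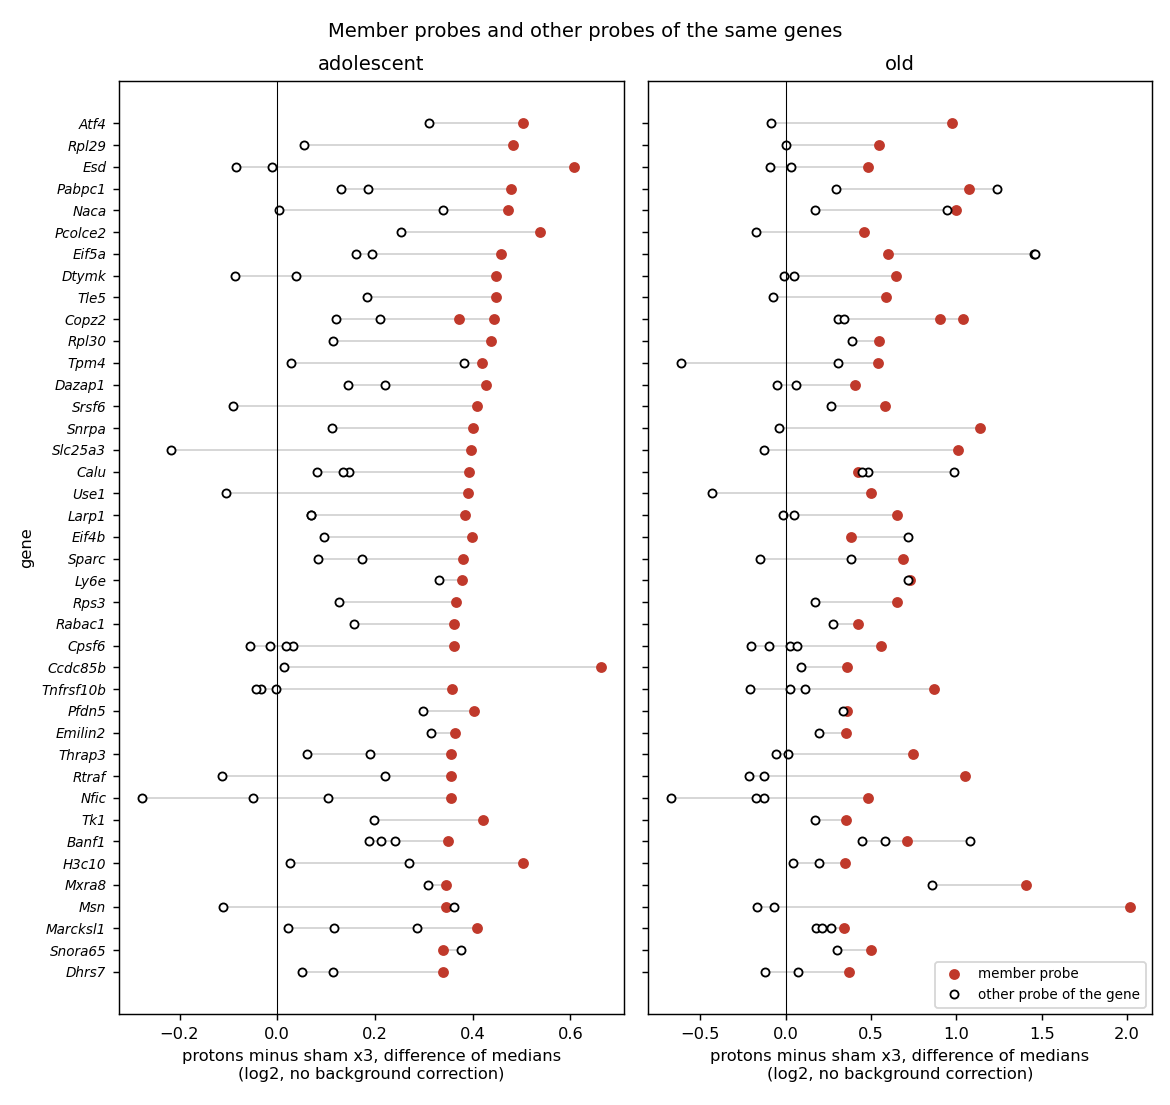
Irradiated minus sham x3 difference of medians (horizontal axes, log2 without background correction) for member probes (filled) and other kept probes of the same gene (open), in adolescent and old mice. Most open points lie left of the filled ones, and 15 of 68 are left of 0 in adolescent and 24 in old mice.

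Read against 21 lists of pathway and cell type genes, 12 member probes fell on 7 lists and 14 lists held none, among them the interferon, cell cycle, hypoxia, endothelial, T cell and neutrophil lists. The list of p53 targets held Tnfrsf10b only; of its other 43 probes none was higher and 1 lower against sham acute tumours in adolescent mice, and none was higher and 5 lower in old mice. Among 18 other probes of inflammation and chemokine genes, 1 was higher in adolescent mice, with a median of 0.277, and 1 was higher and 2 lower in old mice, with a median of -0.0634. The unfolded protein and heat shock list, which holds Atf4, had 2 higher and 1 lower of 28 other probes in adolescent mice and 1 higher and 7 lower in old mice. The list of fibroblasts and extracellular matrix, which holds Mmp3 and Sparc, had 1 higher and 2 lower of 35 in adolescent mice and 0 higher and 5 lower in old mice. Of the immediate early list neither Myc nor any of the other 13 probes passed at either age. Over all probes 8.29% were higher and 7.14% lower than in sham acute tumours in adolescent mice, and 8.21% and 11.4% in old mice. These lists were described by counts and not tested as sets.

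Markers of host cells were summed over each list, without the members. The summed level of 24 macrophage probes was 29720, 43304 and 51206 in irradiated old tumours, against 24654, 39107 and 43427 in old sham acute and 25861, 40683 and 43858 in old sham x3 tumours. That of 35 fibroblast and matrix probes was 51907, 62116 and 76019 in irradiated old tumours, against 59420, 68443 and 85007 in old sham acute and 46236, 56018 and 73073 in old sham x3 tumours. The 16 neutrophil probes summed to 962, 9474 and 15829 in irradiated adolescent tumours, against 1629, 7125 and 12880 in adolescent sham acute tumours. In old mice they summed to 1203, 3265 and 17310 in irradiated tumours, against 1178, 6164 and 9265 in sham acute tumours, so the median lay above that of sham acute tumours in adolescent and below it in old mice. These ranges overlapped between all sets named. The 10 T and NK cell probes summed to 2444, 3090 and 3602 in irradiated old tumours, against 1818, 2266 and 2886 in old sham acute tumours. In adolescent mice the medians of irradiated and sham acute tumours were 35509 and 36305 for the macrophage list, 64950 and 63695 for the fibroblast list and 2905 and 2915 for the T and NK cell list. The endothelial list had medians of 6540 and 6452 in irradiated and sham acute adolescent tumours, and of 5621 and 6622 in irradiated and sham acute old tumours. The part of these sums in the differences of the 100 probes was not tested.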

How the data were processed

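RNA of 57 tumours was hybridised to Illumina mouse WG-6 bead arrays, 1 tumour per array, per the labels. The deposited files give a probe intensity, per the file headers an average signal, and a detection p-value for each probe, as the authors deposited them. Their lowest intensity was 70.75, and array medians were 89.2 to 208. The number of arrays limits the precision of a set mean. The authors' normalized values (linear intensities, medians 132 to 162, the same rank order of probes on each array) follow background subtraction and rank-invariant normalization in GenomeStudio, per the labels and the series' design text; these were used as an alternative, on a log2 scale.

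Intensities were background-corrected and quantile-normalized with neqc (offset 16, log2) in limma 3.58.1 (R 4.3.3), and 20591 of 45281 probes with a detection p-value under 0.05 on at least 10 arrays were kept. A mean for each of the 6 sets was fitted with lmFit and eBayes, with Benjamini-Hochberg adjustment over all probes kept, and the script was tested on simulated data. The 100 probes were chosen on quantile-normalized log2 intensities without background correction; 89 were detected on all 57 arrays and 11 on fewer. Irradiated and sham x3 arrays chose them, so differences between those sets carry no test. Platform annotation gave 1 symbol to 34885 probes, several to 18 and none to 10378, and the Entrez numbers of all 71 named members were found in RefSeq.

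The members, the gene lists, the roles and the lung and muscle genes were chosen with earlier results of these data known. Named are the top 20 members, the 3 on each side of the limit, up to 5 called lower than sham acute tumours at either age, up to 5 called each way between old and adolescent sham acute tumours, every member on a list, and genes with more than 1 member probe; no member was called higher than sham acute tumours at both ages, a further part of the rule. Genes outside it (Banf1, Msn and the examples of a role) were chosen after their values were seen. The alternatives were other normalizations, filters, sets in the fit, array weights, a replicate block, left-out arrays and, added after seeing the data, the share of detected probes as a covariate. The descriptions of 9 old sham acute tumours omit the dose, which their source name gives. Figures were drawn in python 3.11.15.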

Additional observations from a re-analysis of the deposited data

Results flagged for a closer look

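Single arrays lay far from the rest of their set, by Dixon's criterion at its 95% level, in 10 of 120 sets of values tested, where chance gives about 6 (1 in 20). Calu was 6.05 on adolescent irradiated replicate 7 (set median 7.31), and Msn was 11.39 on adolescent irradiated replicate 1 (10.78). On adolescent sham acute replicate 12, Mmp3 was 8.47 on ILMN_2704576 (11.25) and 9.57 on ILMN_2753809 (12.04). Among old sham acute tumours, Ccl12 ILMN_2771766 was 10.53 on replicate 18 (8.43), Cxcl1 was 9.41 on replicate 16 (12.08) and Tnfrsf10b was 9.66 on replicate 10 (9.01). Among old sham x3 tumours, Calu was 6.40 (4.53) and Msn 10.85 (7.70) on replicate 9, and H2bc15 was 7.60 on replicate 6 (8.82).

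The irradiated minus sham acute difference was lower in old than in adolescent mice for 40 of the 100 probes in limma's test of that difference. On the log2 scale the old minus adolescent value was -1.40 for Myc, -0.86 for Atf4, -2.88 for Pabpc1, -2.27 for Srsf6, -2.18 for Tpm4, -2.36 for Calu, -1.19 for H2bc15 and -1.42 for Msn.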

How the results depend on the processing

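The number of the 100 probes higher in irradiated than sham acute tumours was 0 at both ages together under every alternative run. In adolescent mice 33 became 21 with scaling to the 75th percentile, 54 with array weights and 0 with the replicate block. In old mice 2 became 0 with 75th percentile scaling (33 lower), with the replicate block and with the share of detected probes as a covariate (13 lower), and 4 with the authors' normalized values and with array weights. Between old and adolescent sham acute tumours 17 became 37 with only those 2 sets in the fit, 38 with array weights and 26 without the 3 arrays that stood apart. The difference between the ages ranged from 35 (replicate block; also no filter) to 55 (array weights). Of the members, 52 were chosen again on background-corrected values, 59 by means instead of medians and 72 without the 3 arrays. Leaving out 1 array at a time gave 28 to 36 in adolescent mice, 1 to 3 in old mice, 0 to 0 at both ages, 13 to 18 between the ages, 37 to 45 for the difference and 77 to 97 members chosen again. The share of all probes called was not taken for these alternatives. A changed count may therefore not be particular to the 100 probes.

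The replicate numbers did not pair the samples: same-numbered correlations ran from -0.223 to 0.353 for adolescent irradiated and sham x3 tumours (4 of 9 over 0.1). Irradiated and sham acute sets share only number 10, so a block leaves those contrasts little information by construction. The cause of the other changes was not tested. Calu was detected on 45 of 57 arrays, the fewest among the 100 probes.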
